A study of Mus musculus with 10 samples.

Results

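The genes described are 10 inhibitory receptors and exhaustion markers of T cells: Pdcd1, Ctla4, Lag3, Havcr2, Tigit, Cd160, Btla, Entpd1, Cd200 and Cd244. They were chosen by symbol among the 23992 symbols of the deposited tables, with the transcript of most reads kept for each. All 10 were found and all 10 passed the filter on low counts. The cells were CD8+ T cells isolated from spleens of C57BL/6N mice, stimulated for 48 h through CD3 and CD28, pooled, washed and re-plated for 48 h. In the re-plating step they received no cytokine (the control, labelled NC), human IL-2 at 100 IU/ml or mouse IL-21 at 100 ng/ml. In the groups IL-2 + LDHi and IL-21 + LDHi, 1 µM of NCI-737, a pyrazole-based inhibitor of LDH (lactate dehydrogenase, which makes lactate from pyruvate at the end of glycolysis), was present from the stimulation onward and replenished with the cytokine. No group had the inhibitor without a cytokine, so an effect on stimulation and one on the cytokine phase cannot be told apart. Each of the 5 groups had 2 libraries. The labels do not say whether these came from separate mice or cultures. Each p value of the main test rests on how far the 2 libraries of a group lie apart, estimated over all 5 groups together. That distance may be technical only.

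T cells put inhibitory receptors on their surface after they are activated, and the receptors dampen further signalling when they meet their ligands on other cells. In chronic infection and in tumours, CD8+ T cells that carry several of them at once and respond weakly are called exhausted, but the same genes are also turned on for a time in healthy activated cells. PD-1 (Pdcd1), CTLA-4 (Ctla4) and BTLA (Btla) belong to the CD28 family, LAG-3 (Lag3) resembles CD4, TIM-3 (Havcr2), TIGIT (Tigit) and CD160 (Cd160) are further immunoglobulin-like receptors, 2B4 (Cd244) is a receptor of the SLAM family, CD200 (Cd200) is a surface ligand, and CD39 (Entpd1) is an enzyme that breaks down extracellular ATP.

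The libraries held 45138204 to 62848913 reads by the authors' totals, of which 27137191 to 46656183 fell on the kept transcripts. IL-21 replicate 2 was the lowest in this, and the IL-21 libraries lay farthest apart (SD of the log2 difference between replicates 0.76, against 0.30 in IL-2 + LDHi). All 10 CD8+ T cell markers had reads in every library, at a summed 1932 to 2652 RPKM (reads divided by transcript length in kilobases and by the library total). Markers of other cells differed between groups. The 15 myeloid markers summed to 156.0 and 199.8 RPKM without cytokine, 65.3 and 72.5 in IL-21, 12.1 and 14.4 in IL-2, 13.6 and 19.3 in IL-2 + LDHi and 6.88 and 9.69 in IL-21 + LDHi. The 6 basophil and mast cell markers summed to 322 and 671 RPKM without cytokine and 105 and 134 with IL-21, and lay between 1.02 and 4.47 in the other groups. The 4 NK cell markers were highest in IL-2 + LDHi, at 12.3 and 11.5 RPKM, against 1.97 and 2.43 in IL-2 and 0.56 and 0.65 in IL-21 + LDHi. The sum of the 7 B cell markers was higher in replicate 1 than in replicate 2 of 3 groups, at 20.5 and 9.03 RPKM without cytokine, 20.4 and 5.01 with IL-21, 18.6 and 6.19 in IL-21 + LDHi and 8.30 to 9.42 in the 4 libraries with IL-2. S100a8 had no read in either library of IL-2 + LDHi or IL-21 + LDHi, S100a9 none in the latter, and C1qb none in IL-2. In such bulk samples, fewer cells of a type and less RNA per cell cannot be told apart.

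**Figure D1:**
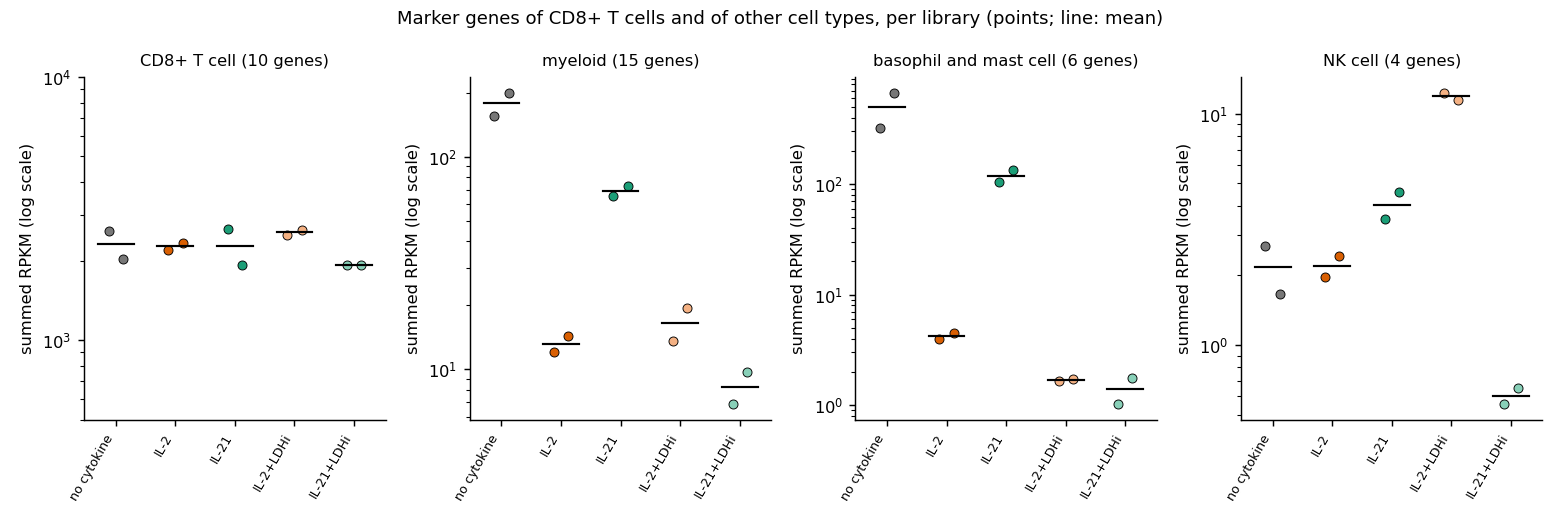
Summed RPKM (log scale) of marker genes for CD8+ T cells, myeloid cells, basophils and mast cells, and NK cells, with 1 point per library and a line at the mean of each group. The CD8+ T cell sum stayed between 1932 and 2652 RPKM, while the myeloid sum ran from 6.88 RPKM in IL-21 + LDHi to 199.8 RPKM without cytokine.

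The genes lie on 6 chromosomes, and several sit next to relatives (GRCm38, the assembly of mm10). Ctla4 (chromosome 1, 60909025 to 60915832, plus strand) lies 44.9 kb from Icos and 135.7 kb from Cd28, both activating receptors of its family. Lag3 (chromosome 6, 124904359 to 124912434, minus strand) lies 16.1 kb from Cd4. Btla (chromosome 16, 45223705 to 45252895, plus strand) and Cd200 (45382111 to 45409060, minus strand) are 129.2 kb apart, and Tigit (43626137 to 43665125, minus strand) is on the same chromosome. Pdcd1 (94038305 to 94052553, minus strand) and Cd244 (171558718 to 171585316, plus strand, named Cd244a by RefSeq) are on chromosome 1, Havcr2 on chromosome 11 (46454931 to 46481255, plus strand), Cd160 on chromosome 3 (96798763 to 96829351, minus strand) and Entpd1 on chromosome 19 (40612366 to 40741602, plus strand). Exons of Cd160 overlap exons of Pdzk1 on the other strand, and Pdzk1 had 0 to 52 reads in a library where Cd160 had 46 to 3617.

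RefSeq promoter windows (GRCm38.p6, 250 bases before to 50 after a start site) were at hand for 9 of the 10 genes, in 11 windows, all but that of Lag3. They were searched on both strands for short motifs of factors named in T cell activation or LDH biology. The core ACGTG, bound by the hypoxia factor HIF-1 and by other factors, was found in 5 of the 11 windows, against 19.6% of 32851 windows of that length. These were 1 window each of Ctla4, Tigit, Havcr2, Btla and Cd244. The AP-1 motif TGANTCA was found in 2 of the 11 windows, those of Havcr2 and Cd244 (7.81% of all windows). The STAT motif TTCNNNGAA was in 1 window, of Cd160 (8.3%), and the NFAT core GGAAA in 6 windows (61.3%). A match is a string of letters in the window, not a shown binding site. Of the ACGTG genes, Ctla4, Tigit and Havcr2 fell with the LDH inhibitor in both cytokines, Btla did not pass the test in either, and Cd244 rose in IL-2 and fell in IL-21, as described further on. Of the genes without ACGTG in a window, Pdcd1, Entpd1 and Cd200 fell in both cytokines and Cd160 in IL-21. Motif and response were not tested against each other. Their windows are printed with ACGTG (or CACGT, its reverse complement) and TGANTCA in capitals. They lie at chr1:60908775-60909074 (Ctla4, plus strand), chr16:43664135-43664434 (Tigit, minus strand), chr11:46454681-46454980 (Havcr2, plus strand) and chr16:45224087-45224386 (Btla, plus strand). The downstream window of Cd160, at chr3:96814472-96814771 on the minus strand, has the STAT motif in capitals and is shown as the only window with that motif. Havcr2, Btla and Cd244 had no STAT match and, like Cd160, were called higher with IL-21 and not called with IL-2.
Ctla4: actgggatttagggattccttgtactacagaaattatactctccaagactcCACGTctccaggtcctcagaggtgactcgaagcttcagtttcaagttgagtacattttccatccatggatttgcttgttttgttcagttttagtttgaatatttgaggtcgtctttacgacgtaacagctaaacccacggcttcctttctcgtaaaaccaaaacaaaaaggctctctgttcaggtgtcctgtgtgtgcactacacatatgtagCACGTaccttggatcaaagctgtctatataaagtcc
Tigit: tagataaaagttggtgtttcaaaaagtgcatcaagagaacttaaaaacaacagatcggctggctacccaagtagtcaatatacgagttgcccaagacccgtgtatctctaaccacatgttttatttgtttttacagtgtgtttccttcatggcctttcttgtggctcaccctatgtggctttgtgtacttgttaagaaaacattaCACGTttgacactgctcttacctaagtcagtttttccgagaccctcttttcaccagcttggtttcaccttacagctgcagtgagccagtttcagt
Havcr2: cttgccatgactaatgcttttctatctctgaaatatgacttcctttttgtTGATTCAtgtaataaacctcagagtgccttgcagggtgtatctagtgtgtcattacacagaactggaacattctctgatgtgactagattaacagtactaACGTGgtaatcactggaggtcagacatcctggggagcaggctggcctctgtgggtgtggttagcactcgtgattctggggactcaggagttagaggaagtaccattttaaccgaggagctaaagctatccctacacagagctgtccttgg
Btla: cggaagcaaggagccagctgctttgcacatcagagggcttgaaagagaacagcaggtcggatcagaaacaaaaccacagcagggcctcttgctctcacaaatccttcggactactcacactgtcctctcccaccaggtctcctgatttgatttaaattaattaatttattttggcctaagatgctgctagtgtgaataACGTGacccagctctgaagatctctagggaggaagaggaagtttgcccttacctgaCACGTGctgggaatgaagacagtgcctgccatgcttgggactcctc
Cd160: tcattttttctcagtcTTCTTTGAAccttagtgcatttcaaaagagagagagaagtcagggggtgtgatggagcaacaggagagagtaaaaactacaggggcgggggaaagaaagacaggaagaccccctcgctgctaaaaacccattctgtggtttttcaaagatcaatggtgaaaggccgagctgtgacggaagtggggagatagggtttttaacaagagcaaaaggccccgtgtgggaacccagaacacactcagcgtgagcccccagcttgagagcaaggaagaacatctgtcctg
The window of Btla holds ACGTG in 2 places, one of them the palindrome CACGTG, which reads the same on both strands, and that of Ctla4 in 2 places.

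Levels are given as RPKM, which can be compared between genes because length is taken out. Ctla4 was the most abundant of the 10 genes in IL-2, at 66.6% of their summed mean RPKM, and without cytokine, at 56.4%. Btla led in the other groups, with 26.8% in IL-21, 36.3% in IL-2 + LDHi and 87.0% in IL-21 + LDHi. Summed over the 10 genes, the libraries had 119.1 and 95.1 RPKM without cytokine, 275.7 and 294.5 in IL-2, 173.9 and 138.6 with IL-21, 50.5 and 51.0 in IL-2 + LDHi and 46.9 and 40.5 in IL-21 + LDHi. With Btla set aside, the sum in IL-21 + LDHi was 6.59 and 4.79 RPKM, against 32.3 and 32.3 in IL-2 + LDHi. The mean level was highest in IL-2 for 5 genes and in IL-21 for the other 5, and lowest in IL-21 + LDHi for 8 genes, with Lag3 (lowest in IL-2 + LDHi) and Btla (lowest without cytokine) as the exceptions.

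**Figure D2:**
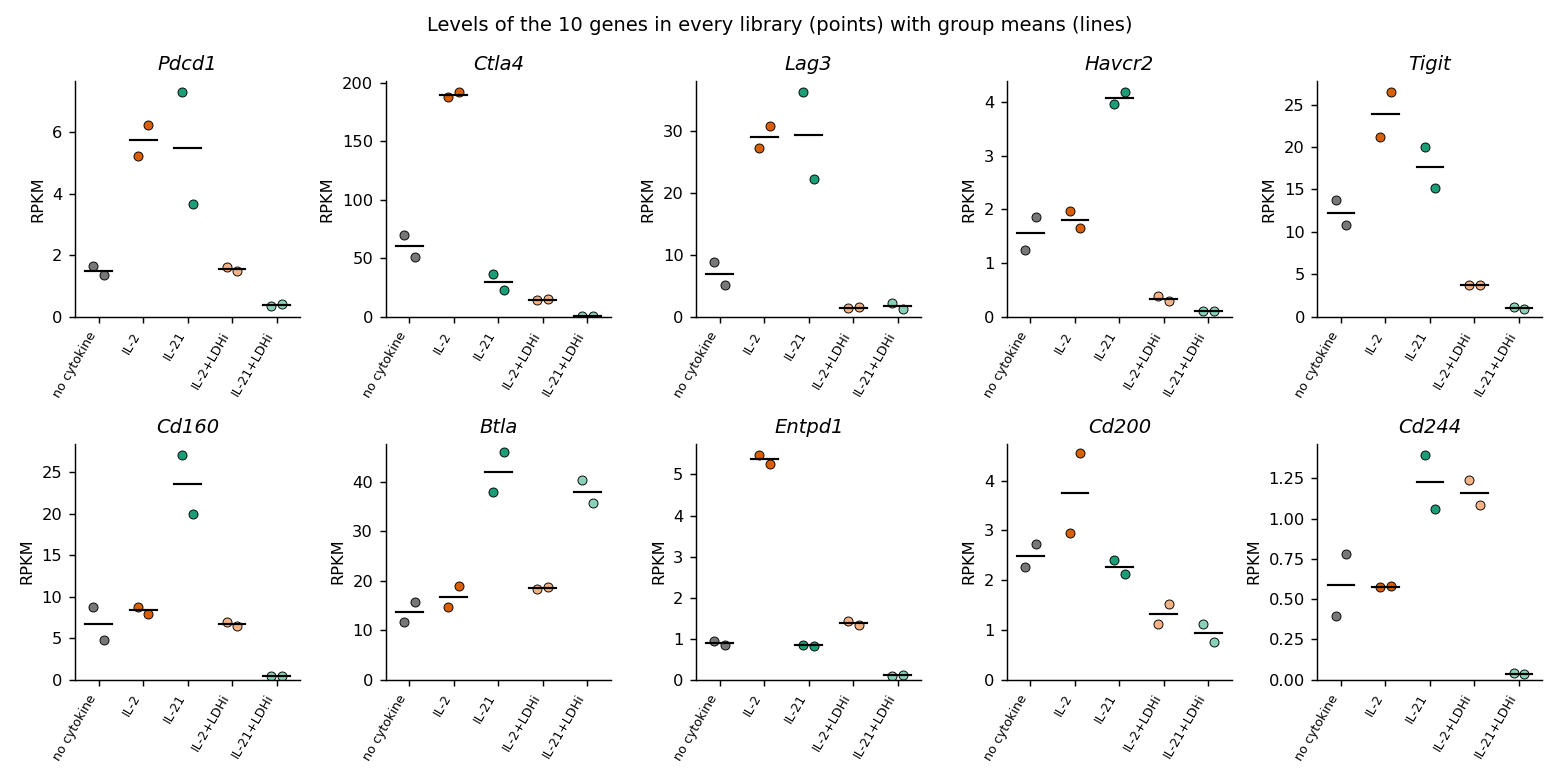
RPKM of each of the 10 genes (1 panel each, linear axis from 0) in every library, with points for the 2 libraries of a group and a line at their mean. In IL-21 + LDHi the points of Ctla4, Cd160, Entpd1, Havcr2 and Cd244 lie near 0, while those of Btla (40.3 and 35.7 RPKM) lie close to IL-21 alone.

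The first comparisons asked what each cytokine did to activated cells. Differences are log2 fold changes ± SE from edgeR's quasi-likelihood test, with p adjusted over the 14357 genes tested, and a gene is called at an adjusted p below 0.05. With IL-2, 5 of the 10 genes rose (Pdcd1, Ctla4, Lag3, Tigit and Entpd1) and the other 5 were not called, against 25.6% of all genes tested that rose and 24.8% that fell, 50.5% in all. The median change of the 10 genes was 0.75, against -0.03 over all genes. With IL-21, 7 rose (Pdcd1, Lag3, Havcr2, Tigit, Cd160, Btla and Cd244), Ctla4 fell, and Entpd1 and Cd200 were not called, against 5.65% of all genes that rose and 5.9% that fell, 11.5% in all. The median was 1.39, against -0.01. Both comparisons use the same libraries without cytokine, so their values stand side by side and are not independent.

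The IL-21 calls depended on the spread borrowed from the other groups. When only IL-21 and no cytokine were fitted, edgeR called 0 of the 10 genes and 91 genes in all. Of the 10, 8 had an unadjusted p below 0.05. Their adjusted p ran from 0.0589 to 0.963 over the 10, while DESeq2 on all libraries called 8. The count was 5 without any single one of the IL-2 or IL-2 + LDHi libraries, where Ctla4 (-0.87 to -0.65 over the fits that lost its call, the fit without no cytokine replicate 1 among them), Tigit (0.51 to 0.69) and Cd244 (0.80 to 1.25) lost their calls. Tigit also lost it without no cytokine replicate 2 or either IL-21 + LDHi library, and Cd244 without no cytokine replicate 1 or either IL-21 + LDHi library.

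**Figure D3:**
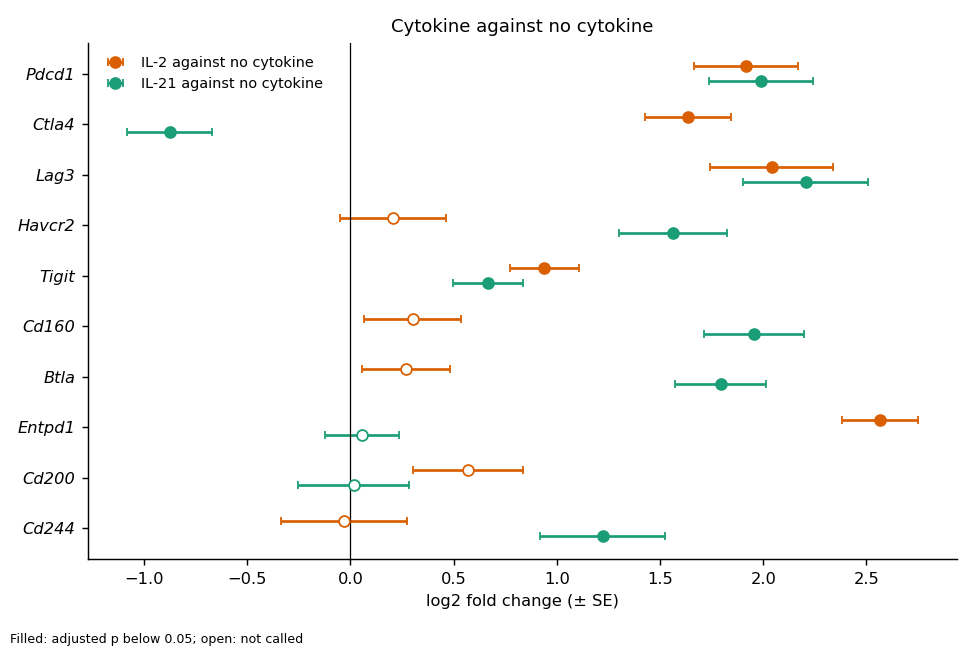
Log2 fold change ± SE of each gene for IL-2 (orange) and IL-21 (green) against no cytokine, with filled points for genes called at an adjusted p below 0.05. Pdcd1 and Lag3 have both points near 2, Ctla4 has them on opposite sides of 0, and only the IL-2 point of Entpd1 and only the IL-21 points of Havcr2, Cd160, Btla and Cd244 are filled.

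Set directly against IL-2, IL-21 left the genes in different places. Cd160 (1.65 ± 0.24), Btla (1.53 ± 0.22), Havcr2 (1.36 ± 0.26) and Cd244 (1.25 ± 0.30) were higher in IL-21, and Ctla4 (-2.51 ± 0.22) and Entpd1 (-2.51 ± 0.18) were lower. These are 4 and 2 of 10 genes, against 24.9% and 24.7% of all genes tested, 49.6% in all. Pdcd1 (95% interval -0.47 to 0.62), Lag3 (-0.48 to 0.81), Tigit (-0.65 to 0.11) and Cd200 (-1.16 to 0.05) were not called, and the intervals leave room for differences of up to the sizes given. Cd244 lost its call without IL-2 replicate 1 (1.25) or IL-2 replicate 2 (1.26).

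The next comparisons asked what LDH inhibition changed in each cytokine. In IL-2, 7 of the 10 genes fell with the inhibitor (Lag3, Ctla4, Tigit, Havcr2, Entpd1, Pdcd1 and Cd200), Cd244 rose, and Cd160 and Btla were not called, against 21.6% of all genes that fell and 17.8% that rose, 39.4% in all. The median change was -1.96, against 0.01 over all genes. In IL-21, 9 of the 10 fell and Btla alone was not called, against 20.3% of all genes that fell and 11.1% that rose, 31.4% in all. The median was -4.06, against -0.03, and each of the called genes fell by 2-fold or more. The count was 7 to 9 in IL-2 and 8 to 9 in IL-21 when single libraries were left out. Leaving out both libraries without cytokine, where markers of other cells were highest, gave 9 calls in each.

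**Figure D4:**
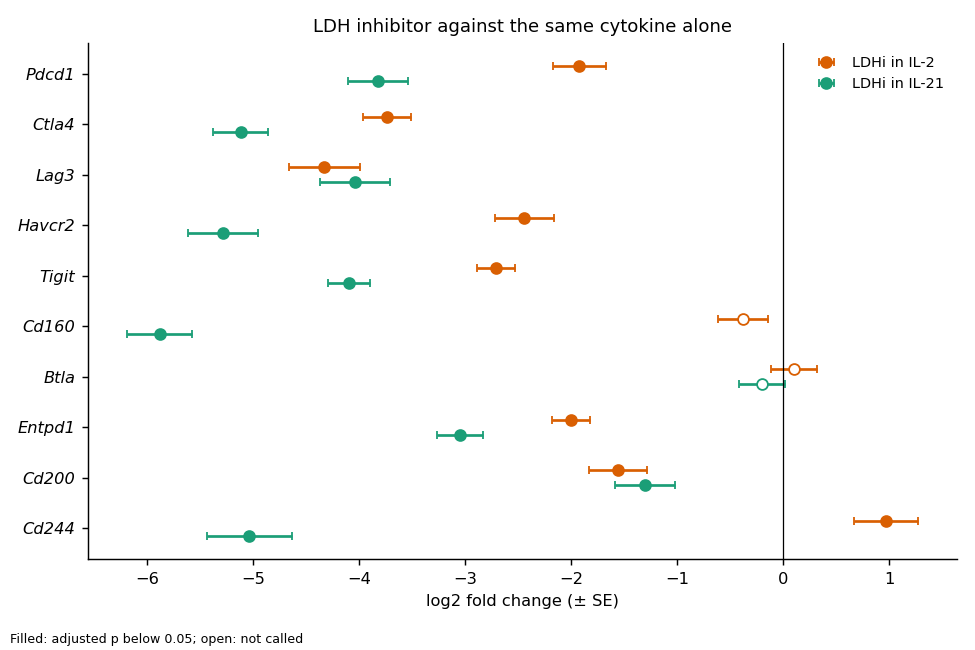
Log2 fold change ± SE of each gene for the LDH inhibitor added to IL-2 (orange) or to IL-21 (green), each against the same cytokine alone, with filled points for called genes. The green points of all genes but Btla lie between -5.88 and -1.30, Cd160 and Cd244 have orange points far from their green ones, and those of Lag3 and Cd200 lie close together.

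Whether the inhibitor acted differently in the 2 cytokines was tested by an interaction, the change in IL-21 minus the change in IL-2. It was called for 7 of the 10 genes, lower in each, against 13.8% of all genes called lower and 7.98% called higher, 21.8% in all. The sizes were -6.00 ± 0.50 for Cd244 (adjusted p = 8.26e-05), -5.51 ± 0.37 for Cd160 (2.53e-05), -2.84 ± 0.42 for Havcr2 (0.0017), -1.90 ± 0.37 for Pdcd1 (0.00644), -1.38 ± 0.32 for Ctla4 (0.0143), -1.38 ± 0.26 for Tigit (0.00527) and -1.04 ± 0.28 for Entpd1 (0.0264). Lag3 (0.29 ± 0.43, 95% interval -0.68 to 1.27), Cd200 (0.26 ± 0.39, -0.62 to 1.14) and Btla (-0.30 ± 0.30, -0.98 to 0.38) were not called. The call of Ctla4 was lost without either IL-2 library, IL-2 + LDHi replicate 2 or IL-21 + LDHi replicate 2 (-1.41 to -1.04), and that of Entpd1 without either IL-2 library, either IL-2 + LDHi library or IL-21 + LDHi replicate 1 (-1.11 to -0.85). On log2(RPKM + 1), limma called 4 of the 10 and gave Entpd1 the other sign (0.69, limma's adjusted p = 0.00688), and with a pseudocount of 0.1 Entpd1 measured -0.31 and was not called.

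With the inhibitor in both arms, 7 genes were lower in IL-21 + LDHi than in IL-2 + LDHi (Cd244, Ctla4, Cd160, Entpd1, Pdcd1, Tigit and Havcr2), Btla was higher, and Lag3 and Cd200 were not called, against 16.7% and 9.39% of all genes tested, 26.1% in all. Havcr2 (-1.49 ± 0.33) lost its call without IL-2 + LDHi replicate 1 or either IL-21 + LDHi library (-1.52 to -1.24). Against no cytokine, 9 genes were lower in IL-21 + LDHi and Btla was higher (23.6% and 13.5% of all genes, 37.1% in all), while in IL-2 + LDHi 5 were lower (Lag3, Havcr2, Ctla4, Tigit and Cd200), Entpd1 was higher, and Pdcd1, Cd160, Btla and Cd244 were not called (13.3% and 10.9%, 24.2% in all). Thus the levels in IL-21 + LDHi lay below those of cells that got neither cytokine nor inhibitor for all of the genes but Btla. Entpd1 in IL-2 + LDHi (0.56 ± 0.18, adjusted p = 0.0484) lost its call without any single library other than the IL-21 ones (0.50 to 0.64), and so did Cd200 without either library of the groups compared (-1.20 to -0.78). Cd200 in IL-21 + LDHi against no cytokine lost it without IL-21 + LDHi replicate 2 (-1.03).

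Among the CD28 family, Ctla4, which competes with CD28 for the ligands CD80 and CD86, had the widest range of levels. It measured 69.7 and 51.3 RPKM without cytokine, 187.7 and 192.1 in IL-2, 36.7 and 23.3 with IL-21, 14.5 and 14.9 in IL-2 + LDHi and 1.10 and 0.65 in IL-21 + LDHi. No neighbouring groups in that order overlapped, and the highest mean was 217.5 times the lowest. IL-2 raised it by 1.63 ± 0.21 (adjusted p = 0.000251) and IL-21 lowered it, with a change of -0.87 ± 0.21 (0.0285). The inhibitor changed it by -3.73 ± 0.23 in IL-2 (1.26e-05) and by -5.11 ± 0.26 in IL-21 (1.79e-06). Its 2 listed transcripts shared most reads (the other had 95.6% of the reads of the one kept), so forms of CTLA-4 were not separated.

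Pdcd1, the gene of PD-1, a receptor that brings phosphatases to the activated T cell receptor, was far less abundant. It measured 1.65 and 1.34 RPKM without cytokine, 5.21 and 6.23 in IL-2, 7.30 and 3.65 with IL-21, 1.62 and 1.47 in IL-2 + LDHi and 0.35 and 0.42 in IL-21 + LDHi. The IL-2 and IL-21 libraries overlapped, as did those of IL-2 + LDHi and no cytokine, and IL-21 + LDHi lay below all others. The gene rose with IL-2 (1.92 ± 0.25, adjusted p = 0.0003) and with IL-21 (1.99 ± 0.25, 0.00198). With the inhibitor it fell in IL-2 (-1.92 ± 0.25, 0.000488), to a level whose difference from no cytokine had a 95% interval of -0.57 to 0.56, and in IL-21 (-3.82 ± 0.28, 1.57e-05).

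Btla, a receptor for HVEM (the product of Tnfrsf14), was the gene the inhibitor left in place. It measured 11.6 and 15.7 RPKM without cytokine, 14.7 and 18.8 in IL-2, 37.9 and 45.9 with IL-21, 18.2 and 18.6 in IL-2 + LDHi and 40.3 and 35.7 in IL-21 + LDHi. The 4 libraries with IL-21 all lay above the 6 without it, and within each set the groups overlapped with their neighbours. It rose with IL-21 by 1.80 ± 0.22 (adjusted p = 0.00167), also under the inhibitor against IL-2 + LDHi (1.23 ± 0.22, 0.00291). The inhibitor's change was 0.10 ± 0.21 in IL-2 (95% interval -0.39 to 0.59) and -0.20 ± 0.21 in IL-21 (-0.68 to 0.28), so a change as large as that of the other genes that fell, of which the smallest was -1.30, lay outside the interval in IL-21. Cd200, its neighbour on the chromosome, fell in both.

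Cd160, another receptor for HVEM that is anchored in the membrane by a lipid in its common form, shared the IL-21 response of Btla but not its behaviour under the inhibitor. It measured 8.72 and 4.72 RPKM without cytokine, 8.79 and 7.96 in IL-2, 27.1 and 20.0 with IL-21, 6.88 and 6.40 in IL-2 + LDHi and 0.37 and 0.44 in IL-21 + LDHi. The IL-21 libraries lay above all others and those of IL-21 + LDHi below all others. The libraries without cytokine spanned those of IL-2 + LDHi and reached into those of IL-2. IL-21 raised it by 1.95 ± 0.24 (adjusted p = 0.00176). The inhibitor changed it by -5.88 ± 0.30 in IL-21 (2e-06) and was not called in IL-2 (-0.37 ± 0.24, 95% interval -0.91 to 0.16). That second value was called when only IL-2 and IL-2 + LDHi were fitted (adjusted p = 0.00456) and without NC libraries (0.0415 without both).

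Lag3, whose product binds MHC class II and other ligands, responded alike to both cytokines and to the inhibitor in both, as far as these libraries resolve it. It measured 8.82 and 5.08 RPKM without cytokine, 27.1 and 30.8 in IL-2 and 36.2 and 22.3 with IL-21. With the inhibitor, the levels were 1.41 and 1.55 in IL-2 + LDHi and 2.29 and 1.29 in IL-21 + LDHi. The IL-2 libraries fell inside the range of the IL-21 pair, and the IL-2 + LDHi libraries inside that of IL-21 + LDHi. It rose by 2.04 ± 0.30 with IL-2 (adjusted p = 0.000548) and by 2.2 ± 0.30 with IL-21 (0.00279). With the inhibitor it changed by -4.33 ± 0.34 in IL-2 (3.72e-05) and by -4.04 ± 0.33 in IL-21 (2.96e-05). Cd4, its neighbour and a marker of helper T cells, stayed between 0.19 and 1.05 RPKM in all libraries.

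Tigit, which binds CD155 (the product of Pvr) and competes with the activating receptor CD226, followed the same order as Ctla4 except that IL-21 lay above no cytokine. It measured 13.8 and 10.8 RPKM without cytokine, 21.2 and 26.5 in IL-2, 20.0 and 15.2 with IL-21, 3.70 and 3.79 in IL-2 + LDHi and 1.14 and 0.95 in IL-21 + LDHi. No neighbouring groups overlapped, though IL-21 replicate 2 was close to no cytokine replicate 1. IL-2 raised it by 0.94 ± 0.17 (adjusted p = 0.00164) and IL-21 by 0.67 ± 0.17 (0.0364). The inhibitor changed it by -2.71 ± 0.18 in IL-2 (1.78e-05) and -4.09 ± 0.20 in IL-21 (1.44e-06).

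Havcr2, the gene of TIM-3, which is found on exhausted T cells and also on myeloid cells, was low throughout. It measured 1.24 and 1.86 RPKM without cytokine, 1.97 and 1.66 in IL-2, 3.96 and 4.19 with IL-21, 0.39 and 0.29 in IL-2 + LDHi and 0.105 and 0.110 in IL-21 + LDHi, the last from 14 and 15 reads. IL-21 lay above and both inhibitor groups below all other libraries. It rose with IL-21 (1.56 ± 0.26, adjusted p = 0.00697), was not called with IL-2 (0.21 ± 0.26, 0.532), and changed with the inhibitor by -2.44 ± 0.28 in IL-2 (0.000245) and -5.28 ± 0.33 in IL-21 (5.17e-06). The myeloid marker sum was also lower with the inhibitor in IL-21 (6.88 and 9.69 against 65.3 and 72.5 RPKM), and its part in that change was not tested. Of the 15 markers, 12 fell in IL-21, against 20.3% of all genes tested. In IL-2, 7 of them rose and 1 fell, against 17.8% and 21.6% of all genes tested. The myeloid sum in IL-2 was 13.6 and 19.3 RPKM with and 12.1 and 14.4 without the inhibitor.

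Entpd1, the gene of CD39, was raised by IL-2 and not detectably by IL-21. It measured 0.95 and 0.84 RPKM without cytokine, 5.48 and 5.26 in IL-2 and 0.83 and 0.83 with IL-21. With the inhibitor, the levels were 1.43 and 1.32 in IL-2 + LDHi and 0.087 and 0.119 in IL-21 + LDHi. The IL-2 libraries stood alone at the top. No neighbouring groups overlapped in RPKM, but no cytokine lay only just above IL-21. The tested change between them, which was scaled by TMM, had the other sign and was not called. The change was 2.57 ± 0.18 with IL-2 (adjusted p = 1.15e-05) and 0.06 ± 0.18 with IL-21 (95% interval -0.35 to 0.47). With the inhibitor it fell in IL-2 (-2.0 ± 0.18, 6.64e-05) and in IL-21 (-3.05 ± 0.22, 1.11e-05). CD39 is also found on myeloid and B cells, and the parts of both marker sums in these changes were not tested. Nt5e, which encodes CD73, the enzyme that takes over the product of CD39 and makes adenosine, went the other way and rose with the inhibitor in IL-21 (1.65 ± 0.18, adjusted p = 0.000151), from 10.6 and 8.02 to 29.2 and 30.2 RPKM.

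Cd244, a SLAM family receptor that binds CD48, was among the lowest of the 10 genes and was moved by the inhibitor in opposite directions. It measured 0.39 and 0.78 RPKM without cytokine, 0.57 and 0.58 in IL-2, 1.40 and 1.06 with IL-21, 1.24 and 1.08 in IL-2 + LDHi and 0.038 and 0.037 in IL-21 + LDHi, the last from 7 reads in each library. The libraries of IL-21 and IL-2 + LDHi overlapped above the rest, those of no cytokine and IL-2 overlapped below them, and those of IL-21 + LDHi lay lowest. With the inhibitor it rose in IL-2 by 0.97 ± 0.30 (adjusted p = 0.031) and changed in IL-21 by -5.04 ± 0.40 (2.37e-05). The rise was not called without any single library of IL-2, IL-2 + LDHi or IL-21 + LDHi (0.86 to 1.08). 2B4 is also carried by NK cells, whose marker sum was highest in IL-2 + LDHi (12.3 and 11.5 RPKM) and lowest in IL-21 + LDHi (0.56 and 0.65). In IL-21, where Cd244 overlapped with IL-2 + LDHi, the NK sum was 3.49 and 4.58 RPKM. The part of NK cells in the levels of Cd244 was not tested. Cd48, the ligand, rose with the inhibitor in IL-2 (0.94 ± 0.12, adjusted p = 0.000373), from 89.7 and 78.5 to 163.3 and 169.5 RPKM.

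Cd200, a surface ligand for an inhibitory receptor on myeloid cells, changed least among the genes that fell. It measured 2.27 and 2.72 RPKM without cytokine, 2.95 and 4.55 in IL-2 and 2.40 and 2.11 with IL-21. With the inhibitor, the levels were 1.11 and 1.51 in IL-2 + LDHi and 1.11 and 0.76 in IL-21 + LDHi. Both inhibitor groups lay below all libraries without it. The change with the inhibitor was -1.56 ± 0.28 in IL-2 (adjusted p = 0.00235) and -1.30 ± 0.28 in IL-21 (0.00761), the latter not called without IL-21 + LDHi replicate 2 (-1.04). Neither cytokine gave a call (0.57 ± 0.27 with IL-2 and 0.02 ± 0.27 with IL-21). Cd200r1, the receptor for CD200, rose with the inhibitor in IL-21 (2.01 ± 0.34, adjusted p = 0.00214).

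CD28 and CD226 are activating receptors that share ligands with CTLA-4 and TIGIT. Cd28 measured 38.9 and 46.2 RPKM without cytokine, 73.6 and 76.2 in IL-2, 23.9 and 27.9 with IL-21, 37.0 and 33.9 in IL-2 + LDHi and 6.81 and 5.28 in IL-21 + LDHi. It fell with the inhibitor in IL-2 (-1.12 ± 0.19, adjusted p = 0.002) and in IL-21 (-2.15 ± 0.20, 6.18e-05). The ratio of Ctla4 to Cd28 RPKM was 1.79 and 1.11 without cytokine, 2.55 and 2.52 in IL-2, 1.54 and 0.83 with IL-21, 0.39 and 0.44 in IL-2 + LDHi and 0.16 and 0.12 in IL-21 + LDHi. So Ctla4 RNA exceeded that of Cd28 in 5 of the 6 libraries without the inhibitor and in none of the 4 with it. The ratio of Tigit to Cd226 was 0.51 and 0.74 in IL-2, 0.45 and 0.39 with IL-21, 0.067 and 0.079 in IL-2 + LDHi and 0.049 and 0.043 in IL-21 + LDHi, and 0.22 and 0.16 without cytokine. Cd226 fell with the inhibitor in IL-21 (-0.91 ± 0.13, adjusted p = 0.000806) and rose in IL-2 (0.37 ± 0.13, 0.0477), a call lost without any single library of IL-2, IL-2 + LDHi or IL-21 + LDHi (0.26 to 0.50). Icos, beside Ctla4, fell in both cytokines (-0.98 ± 0.17 in IL-2 and -0.94 ± 0.17 in IL-21).

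**Figure D5:**
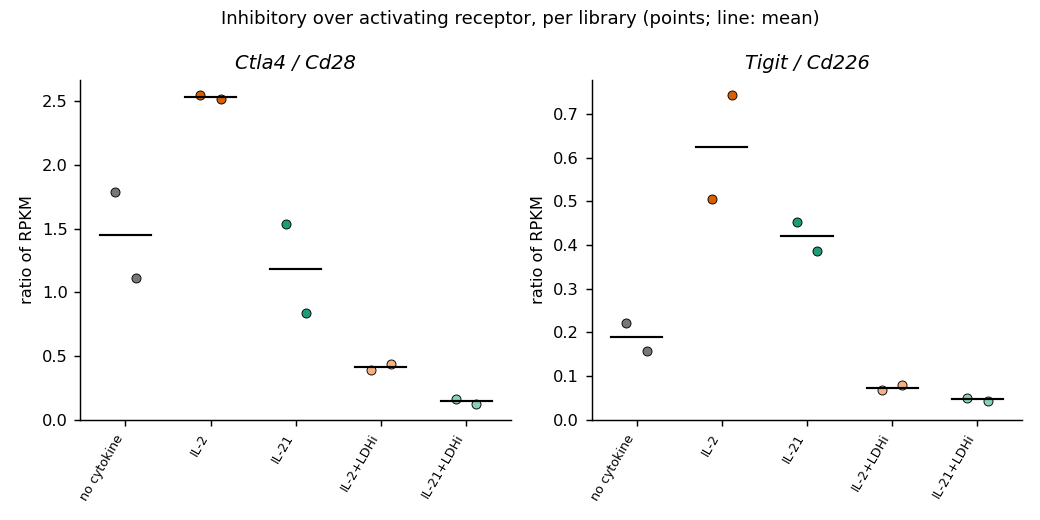
Ratio of the RPKM of an inhibitory receptor to that of the activating receptor it shares ligands with, Ctla4 over Cd28 and Tigit over Cd226, with 1 point per library and a line at the mean. All 4 libraries with the inhibitor lie below all 6 without it in both panels, down to 0.12 for Ctla4 over Cd28 and 0.043 for Tigit over Cd226.

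Other genes of the pathway were taken from lists that were drawn up by role. Their counts stand beside the shares of all genes tested, of which 21.6% fell and 17.8% rose with the inhibitor in IL-2, and 20.3% fell and 11.1% rose in IL-21. Of 12 further inhibitory receptors and markers, 11 were measured under a matching symbol or accession. With the inhibitor in IL-21, 9 fell and 2 rose (median -1.31), and in IL-2, 5 fell and 4 rose (median -0.03, against 0.01 over all genes). Klrg1, a receptor of terminal effector cells, rose in IL-2 (2.52 ± 0.51) and fell in IL-21 (-3.96 ± 0.48), at levels under 1 RPKM throughout. Vsir, the gene of VISTA (listed as 4632428N05Rik), rose in IL-2 (0.76 ± 0.14). In IL-21, Vsir measured 58.9 and 36.8 RPKM without and 65.2 and 67.7 RPKM with the inhibitor. Of 13 ligands and partner receptors, 12 passed the filter, of which 6 fell and 3 rose with the inhibitor in IL-2 and 6 fell and 1 rose in IL-21. Pdcd1lg2, the gene of the PD-1 ligand PD-L2, fell in both (-2.39 ± 0.32 in IL-2 and -6.09 ± 0.53 in IL-21). The second size rests on 2 and 1 reads in IL-21 + LDHi. Cd80 fell in IL-21 (-3.96 ± 0.44), to 3 and 12 reads with the inhibitor. In IL-2, Cd80 measured 2.53 and 2.83 RPKM without and 0.66 and 0.73 RPKM with the inhibitor. Of 13 phosphatases, adaptors and negative regulators downstream of the receptors, 4 fell and 4 rose in IL-2 and 6 fell and 1 rose in IL-21. Sh2d2a, a T cell adaptor, fell in both (-0.86 ± 0.16 and -1.29 ± 0.16) and Pag1, which recruits the kinase Csk, rose in both (0.79 ± 0.10 and 0.76 ± 0.10).

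Transcription factors tied to exhaustion or to these receptors were lower with the inhibitor for the most part. Of 16, 9 fell and 3 rose in IL-2 (median -0.73) and 13 fell and 1 rose in IL-21 (median -2.44). Over all genes tested, 21.6% fell and 17.8% rose in IL-2, and 20.3% fell and 11.1% rose in IL-21. Irf4, a factor induced by T cell receptor signals, fell by 2.99 ± 0.19 in IL-2 and by 3.68 ± 0.21 in IL-21, and Bhlhe40 fell by 2.76 ± 0.16 and 2.62 ± 0.16. Hif1a, the gene of the oxygen-regulated HIF-1 subunit, fell by 2.13 ± 0.16 in IL-2 and changed by -1.51 ± 0.16 in IL-21. Nr4a1, an early target of T cell receptor signals, fell by 4.21 ± 0.22 in IL-21. In IL-2, Nr4a1 went from 4.45 and 5.73 to 1.93 and 1.99 RPKM with the inhibitor. Tox, a factor that sustains exhausted T cells and is named here after its values were seen, rose with the inhibitor instead, by 0.75 ± 0.18 in IL-2 (adjusted p = 0.00932) and 0.81 ± 0.18 in IL-21 (0.00876). The call was lost in IL-2 without IL-2 replicate 1 (0.63) or IL-2 + LDHi replicate 2 (0.73), and in IL-21 without IL-21 + LDHi replicate 1 (0.71) or with only the groups compared (0.80). It measured 6.22 and 6.02 RPKM without cytokine, 3.83 and 4.62 in IL-2, 2.61 and 2.98 with IL-21, 7.11 and 7.48 in IL-2 + LDHi and 5.38 and 4.75 in IL-21 + LDHi. Of 8 genes of precursor exhausted and memory-like cells, 3 rose in IL-2 with the inhibitor and the other 5 were not called, and 1 rose and 2 fell in IL-21. These 3 of 8 called in each cytokine lie near the shares of all genes called (39.4% in IL-2 and 31.4% in IL-21). In IL-21, Ccr7, a homing receptor of naive and memory cells, rose by 1.63 ± 0.22, and Cxcr5, a homing receptor of precursor cells, fell by 2.48 ± 0.25.

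Outside these lists, the genes whose pattern over the 10 libraries was most like that of each member were found by Pearson correlation of log2 read counts scaled by library size (CPM) among 7429 genes of at least 5 RPKM on average, predicted genes left out. The points share groups, so r describes the pattern only. Ctla4 was nearest to Kdm2b (r = 0.991) and Ptprs (0.99), Btla to Ss18 (0.992) and Eapp (0.953), Tigit to Ak3 (0.986) and Gabarapl1 (0.98), and Entpd1 to Evi2a (0.987) and Cdkn1a (0.986). Cd160 was nearest to Lrrfip1 (0.982) and to Tbx21 (0.978), the gene of the effector factor T-bet, and Cd244 to Klra7 (0.968) and Klrc1 (0.962), both NK receptors also found on T cells. Pdcd1 was nearest to Itgb2 (0.972) and Pqlc3 (0.967), Lag3 to Dnajc1 (0.975) and Fuca2 (0.968), Havcr2 to Gbp3 (0.97) and Gimap4 (0.962), and Cd200 to Mt2 (0.968) and Fads2 (0.949). Among the members themselves 37 of 45 pairs had a positive r, the highest for Havcr2 and Tigit (0.943) and the lowest for Btla and Entpd1 (-0.58).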

How the data were processed

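Poly(A) RNA of 10 libraries of cultured mouse CD8+ T cells was sequenced. The deposited files give, per RefSeq transcript, read counts by the authors and RPKM by the authors, computed per the file headers from length and a library total. The submitters' processing notes name mm10, TopHat2 2.2.1, Bowtie2 2.2.6, SAMtools 0.1.8, bedtools 2.25.0 and edgeR. How strand was treated in counting was not stated by the sources used here.

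For each symbol the transcript with most reads was kept. The main test of the counts was edgeR 4.0.16 under R 4.3.3 (genes kept by filterByExpr with a minimum count of 10 and total of 15, TMM scaling, robust quasi-likelihood fit of the 10 libraries, 9 comparisons, two-sided, Benjamini-Hochberg over 14357 genes, common biological coefficient of variation 0.171). An SE is the log2 fold change divided by the square root of F. Intervals (95%) use the fit's degrees of freedom. The test was tested on simulated data. Levels are RPKM as deposited, without TMM, so their ratios differ slightly from the tested changes. Alternatives were RLE, library size alone, DESeq2 1.42.0, other filters (none, or RPKM of at least 1 in 2 libraries), limma 3.58.1 on log2(RPKM + 1) and log2(RPKM + 0.1), only the groups compared, a replicate block, the longest transcript, single libraries left out and, added after seeing the data, both NC libraries left out. Members and lists were chosen with earlier results of these data known. Genes named are all members, up to 4 of each other list by p, the 2 nearest patterns per member, and Tox, Foxp3, Ncr1, Klrb1c and receptor partners whose levels are given beside a member, chosen after their values were seen. Tests for outlying samples need larger groups. Python 3.11.15, pandas 2.3.3 and matplotlib 3.10.9 made tables and figures.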

Additional observations from a re-analysis of the deposited data

Results flagged for a closer look

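The effect of the LDH inhibitor differed between IL-21 and IL-2 for 7 of the 10 genes by the interaction test (edgeR, adjusted over all genes tested). Of all genes tested, 21.8% were called. Cd244 stood out because its changes had opposite signs, 0.97 ± 0.30 in IL-2 and -5.04 ± 0.40 in IL-21, a difference of -6.00. Cd160 differed by -5.51, with a change in IL-2 that was not called. Havcr2 differed by -2.84, Pdcd1 by -1.90, Ctla4 by -1.38, Tigit by -1.38 and Entpd1 by -1.04. The value of Entpd1 was 0.69 on log2(RPKM + 1), where a low gene's change is understated.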

How the results depend on the processing

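Of the 90 changes (10 genes in 9 comparisons) 67 were called, against 11.5% to 50.5% of all genes tested in a comparison. No called change but the interaction of Entpd1 had the other sign under any alternative. The count for IL-21 against no cytokine was 8 and came to 0 with only the groups compared and to 5 to 8 without single libraries. The interaction count was 7, 4 with limma on log2(RPKM + 1) and 5 to 7 without single libraries, and that for IL-2 + LDHi against no cytokine was 6, and 4 to 7 without single libraries. Entpd1 reversed in the interaction with limma on log2(RPKM + 1) (0.69). All other reversals were of changes not called, and stayed uncalled in the fit that reversed them. With limma on log2(RPKM + 1) and log2(RPKM + 0.1) these were Pdcd1 (-0.11 and -0.14) and Lag3 (-0.023 and -0.025) in IL-21 against IL-2, Pdcd1 (0.033 and 0.054) and Cd160 (0.035 and 0.047) in IL-2 + LDHi against no cytokine, Entpd1 (-0.049 and -0.093) and Cd200 (-0.098 and -0.13) in IL-21 against no cytokine, and Cd244 (0.0040 and 0.044) in IL-2 against no cytokine. Pdcd1 in IL-2 + LDHi against no cytokine was also positive with RLE (0.0017), no filter (0.0057), only the groups compared (0.00053) and DESeq2 (0.0027). With library size alone Entpd1 (-0.015) and Cd200 (-0.061) were negative in IL-21 against no cytokine. That scaling moved the median of all genes for IL-2 against no cytokine to -0.165 (from -0.0273), for IL-2 + LDHi against IL-2 to 0.128 (from 0.0102) and for the interaction to -0.215 (from -0.0751). Without single libraries, the ranges that cross 0 were -0.33 to 0.38 for Pdcd1 and -0.057 to 0.35 for Lag3 in IL-21 against IL-2, -0.13 to 0.15 for Pdcd1 and -0.44 to 0.43 for Cd160 in IL-2 + LDHi against no cytokine, -0.063 to 0.54 for Havcr2, -0.064 to 0.80 for Cd160 and -0.45 to 0.55 for Cd244 in IL-2 against no cytokine, -0.092 to 0.20 for Entpd1 and -0.12 to 0.16 for Cd200 in IL-21 against no cytokine, -0.029 to 0.81 for Lag3 in IL-21 + LDHi against IL-2 + LDHi, -0.057 to 0.30 for Btla with the inhibitor in IL-2, -0.46 to 0.12 for Btla with it in IL-21, and -0.56 to 0.014 for Btla, -0.19 to 0.65 for Lag3 and -0.10 to 0.53 for Cd200 in the interaction. The cause was not tested. With the replicate block, the only member call lost was Entpd1 in IL-2 + LDHi against no cytokine (0.56, adjusted p = 0.0634), and Cd226 with the inhibitor in IL-2 also lost its call (0.37, 0.0606). The replicate numbers share only a number: deviations of same-numbered libraries correlated with r from -0.15 to 0.48. Among the 10 genes, depth limits Cd244 and Havcr2 most, with 7 and with 14 and 15 reads per library in IL-21 + LDHi.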

Other observations

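Some genes of other lymphocytes were highest in IL-2 + LDHi, and they are named here after their values were seen. Foxp3, the factor of regulatory T cells that activated T cells can also express, measured 4.10 and 4.10 RPKM in IL-2 + LDHi, 0.49 and 1.23 in IL-2, 0.26 and 0.17 without cytokine, 0.093 and 0.12 in IL-21 and 0.44 and 0.35 in IL-21 + LDHi. Foxp3 rose with the inhibitor in IL-2 by 2.21 ± 0.40 (edgeR, adjusted p = 0.0025) and in IL-21 by 1.84 ± 0.47 (0.0162). Ncr1 and Klrb1c, both NK receptor genes, rose with the inhibitor in IL-2 by 5.42 ± 0.54 (0.000119) and 2.48 ± 0.24 (8.99e-05). Ncr1 measured 4.34 and 3.90 RPKM in IL-2 + LDHi and at most 0.24 in any other library. Of the 4 CD4+ and regulatory T cell markers, Foxp3 and Cd40lg rose with the inhibitor in IL-2 and Zbtb7b fell (-1.34 ± 0.21, adjusted p = 0.00118). Cd4 was not called, at 0.63 and 0.34 RPKM in IL-2 + LDHi. Over all genes tested, 17.8% rose and 21.6% fell in this comparison.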
